A study of Mus musculus with 6 samples.

Results

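Potassium channel genes, taken as the protein-coding genes whose Ensembl 96 symbol begins with Kcn, were described in the mouse cell line CAD, a neuronal line for which the labels give simian virus 40 as the transformant. The name rule found 94 genes among the 55536 gene identifiers of the count tables, of which 22028 are protein-coding. By role, 67 encode subunits that form a potassium-selective pore, 10 encode electrically silent subunits that pass current only together with another subunit, and 17 encode auxiliary or regulatory proteins. Cells differentiated with dexamethasone, a synthetic glucocorticoid, at 100 µM for 5 days in medium with 1% serum (Dex-differentiated, 3 libraries) were compared with proliferating cells in medium with 8% serum (undifferentiated, 3 libraries). The strain background of the line is C57BL/6 x DBA/2, and every library comes from this single male line. Steroid and serum differed together, and the labels give no number of days in culture for the undifferentiated cells. Every difference is therefore of these conditions combined, and they cannot be told apart. Each group is called independent samples by the labels, which do not say whether they were separate cultures, so the spread behind the p-values may be technical.

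Potassium channels let potassium leave the cell and so set the resting potential, end the action potential and limit repetitive firing. Voltage-gated (Kv) channels open on depolarisation, calcium-activated and sodium-activated channels open when those ions enter, inward rectifiers and tandem-pore (K2P) channels carry current near rest, and auxiliary subunits change gating or transport to the membrane. In catecholamine-secreting chromaffin cells and sympathetic neurons, these currents are known to control how firing drives transmitter release.

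More of the potassium channel genes reached 3 reads in every library in Dex-differentiated cells (35) than in undifferentiated cells (20), and most of those with enough reads to test were higher in Dex-differentiated cells. The sodium-activated channel gene Kcnt1 was among the steepest rises, and the M-channel gene Kcnq3 was among the few that fell. Of the 94 genes, 26 had enough reads for edgeR's quasi-likelihood test, which was run on 12664 genes and called a gene changed where the p adjusted by Benjamini-Hochberg was under 0.05. Of these 26, 21 rose in Dex-differentiated cells, 2 fell and 3 did not pass. Over all genes tested, 40.3% rose and 38.6% fell. The fitted log2 fold changes of the 26 had a median of 1.15, against a median of 0.02 over all genes tested. In CPM, 22 of the 26 had every Dex-differentiated library above every undifferentiated one and 2 had every one below, against 41.0% and 38.9% of all genes. A rise of at least 2-fold was called for 16 of the 26 and for 17.8% of all genes; a fall of that size was called for 1 of the 26 and for 12.2% of all genes. The 26 are not all members, and 8 of them reached the read minimum, 1.28 CPM in 3 libraries, through the Dex-differentiated libraries alone, so that the filter fixed their direction: of the 862 genes of that kind, 88.6% rose and 0% fell. Of the 17 that reached it in all 6 libraries, 13 rose, 2 fell and 2 did not pass, against 38.3% higher and 40.7% lower among the 11316 genes of that kind. The 8 are all among the 16 with a 2-fold rise and the 22 without overlap, and the median of 1.15 includes them. Those figures were not redone for the 17, so they are not set against genes that passed the filter alike. CPM is the read count scaled to library size with edgeR's TMM factors. TMM takes most genes to be unchanged, while 78.9% of all genes were called, so higher and lower are relative to the counted mRNA and changes per cell were not measured. Fewer cells with a transcript and less of it per cell cannot be told apart in such bulk libraries.

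Reads of all 94 genes together made up 0.0528%, 0.0564% and 0.0573% of the counts of Dex-differentiated libraries 1, 2 and 3, against 0.0306%, 0.0299% and 0.0292% in the undifferentiated libraries. Scaled, they summed to 532 ± 18.3 CPM in Dex-differentiated cells and 313 ± 6.70 CPM in undifferentiated cells (SD, n = 3 each), a ratio of 1.70. Kcnh2 took 13.6% of these reads in Dex-differentiated cells, against 23.7% in undifferentiated cells, where it was the largest single source. Library totals ran from 6411105 to 8757992 counted reads, at which 3 reads correspond to 0.343 to 0.468 CPM before scaling.

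The identity of the cells was checked on marker lists. Of 13 catecholaminergic and neuroendocrine markers, 10 were detected in Dex-differentiated and 11 in undifferentiated cells; the noradrenaline transporter gene Slc6a2 had no read in any library. These markers changed with the groups: of 11 tested, 5 were higher and 5 lower in Dex-differentiated cells. Dbh, which makes noradrenaline from dopamine, averaged 12.5 ± 0.354 CPM in Dex-differentiated and 165 ± 3.07 CPM in undifferentiated cells (SD, n = 3 each). Ddc, which makes dopamine, had 6, 4 and 2 reads in Dex-differentiated libraries, against 24, 29 and 23 in undifferentiated libraries. The secretory granule gene Chgb was 9.73-fold higher and Th, the first enzyme of the pathway, 2.09-fold higher in Dex-differentiated cells. These 4 were chosen after their values were seen. What these marker changes contribute to the Kcn results was not tested. Of 5 astrocyte markers, Slc1a2 was detected in both groups, Gfap in Dex-differentiated cells alone and Aqp4 in undifferentiated cells alone, and their summed level was 3.38 to 4.10 CPM in Dex-differentiated and 4.33 to 5.36 CPM in undifferentiated libraries. Mog, Mag and Sox10 of the oligodendrocyte and Schwann cell list, Cx3cr1 and Ptprc of the microglia and blood list, and Cldn5 of the endothelial list had no read. The 7 fibroblast and muscle markers summed to 18.7 to 21.1 CPM in Dex-differentiated and 9.42 to 13.3 CPM in undifferentiated libraries, most of it Dcn, while Col3a1 had no read; the part of this list in the results was not tested.

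A gene was counted as detected in a group with at least 3 reads in every library of the group. By this rule 35 of the 94 genes were detected in Dex-differentiated cells and 20 in undifferentiated cells, and the 20 were all among the 35. Over all 22028 protein-coding genes the same rule gave 54.6% in Dex-differentiated and 51.9% in undifferentiated cells. Of all these genes, 3.4% were detected in Dex-differentiated cells alone and 0.699% in undifferentiated cells alone. Genes detected in both groups included Kcnc1, Kcnd1, Kcnq3, Kcnq5, Kcnh2, Kcnh4, Kcnn3, Kcnt1, Kcnj12, Kcnj14, Kcnk1, Kcnk3 and Kcnk10 among the pore genes and Kcnab2, Kcnab3, Kcnip3 and Kcnmb4 among the auxiliary genes. The 15 that met the rule in Dex-differentiated cells alone included Kcna4, Kcnh3, Kcnh6, Kcnh7, Kcnma1, Kcnn1, Kcnn4, Kcnu1, Kcnj4, Kcnj11, Kcnk2, Kcnk12, Kcnab1 and Kcnip2. Meeting the rule in a single group is not in itself a difference: Kcna4, which encodes an A-type Kv1 subunit, had 10 reads over the Dex-differentiated and 16 over the undifferentiated libraries and missed the rule in undifferentiated cells through a library with 2 reads. With a rule of at least 1 read in every library, 39 Kcn genes were detected in Dex-differentiated and 31 in undifferentiated cells, against 58% and 55% of all protein-coding genes. By that rule 1 Kcn gene, Kcne3, was detected in undifferentiated cells alone, against 1.05% of all protein-coding genes.

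Of the 59 genes detected in neither group, 37 had no read in any of the 6 libraries. A count of 0 allows a level of up to 0.343 to 0.468 CPM, depending on the library. These 37 include Kcna1, Kcna2, Kcna3, Kcna5 and Kcna10, so that 5 of the 8 Kv1 pore genes were without a read. They include Kcnd2 and Kcnd3 of the Kv4 family, Kcnc2 of the Kv3 family, Kcnj2, Kcnj5 and Kcnj8 of the inward rectifiers, Kcnk5, Kcnk6 and Kcnk9 of the K2P family, and Kcnt2. Of the 10 silent subunit genes, 8 had no read, and Kcng4 and Kcns2 had 2 and 1 reads in Dex-differentiated and 0 in undifferentiated cells. The other 22 undetected genes had between 0 and 8 reads over the Dex-differentiated and between 0 and 12 over the undifferentiated libraries, the highest being Kcnmb2 with 8 and 12.

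**Figure D1:**
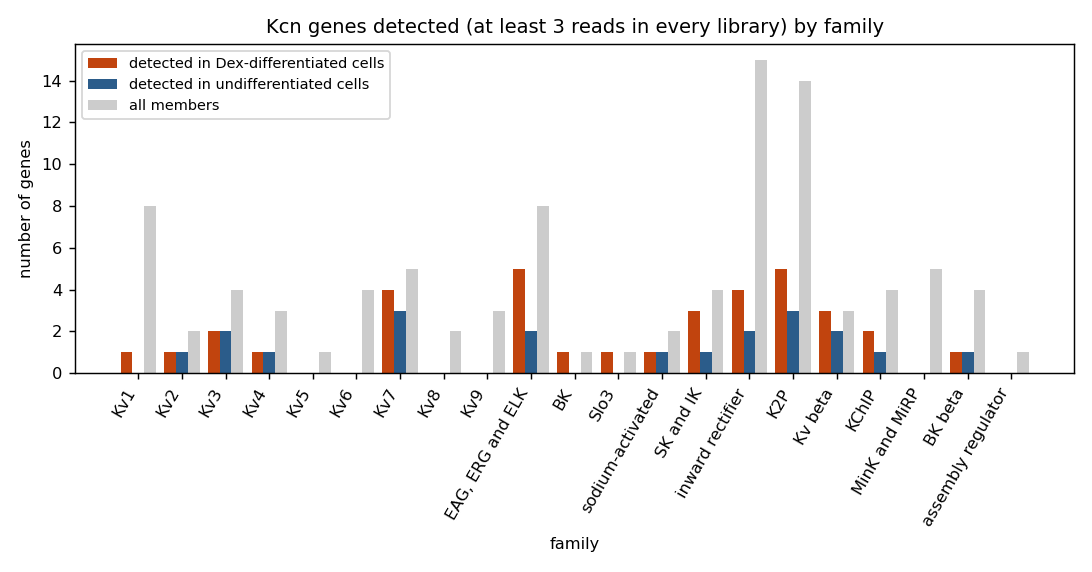
Number of Kcn genes per family that were detected (at least 3 reads in every library) in Dex-differentiated cells and in undifferentiated cells, beside the number of all members of the family. In the EAG, ERG and ELK family 5 of 8 were detected in Dex-differentiated and 2 in undifferentiated cells, while no silent (Kv5, Kv6, Kv8, Kv9) gene was detected in either group.

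Promoter windows of RefSeq on GRCm38.p6, from 250 bases before to 50 bases after an annotated start, were found for 69 of the 94 genes and for 14 of the 26 tested. The 4 printed here are shown because they hold a motif searched for (Kcnk10, Kcnh6 and Kcnmb4) or belong to a gene that rose without one (Kcnn3). Each reads 5′ to 3′ on the strand of the gene, and capitals mark a match on either strand.
Kcnk10, chr12:98575078-98575377, minus strand: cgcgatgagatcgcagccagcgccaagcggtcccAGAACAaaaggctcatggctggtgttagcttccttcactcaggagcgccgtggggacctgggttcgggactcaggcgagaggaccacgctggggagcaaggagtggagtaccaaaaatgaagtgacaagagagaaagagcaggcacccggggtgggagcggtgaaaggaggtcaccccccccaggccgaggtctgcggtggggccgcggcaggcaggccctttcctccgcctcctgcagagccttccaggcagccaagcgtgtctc
Kcnn3, chr3:89519914-89520213, plus strand: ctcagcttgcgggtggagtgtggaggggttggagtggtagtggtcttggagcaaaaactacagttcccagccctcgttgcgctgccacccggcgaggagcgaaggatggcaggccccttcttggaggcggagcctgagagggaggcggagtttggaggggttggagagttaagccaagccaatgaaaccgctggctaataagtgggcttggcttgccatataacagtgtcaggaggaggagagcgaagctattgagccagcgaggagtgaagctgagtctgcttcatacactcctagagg
Kcnh6, chr11:106007898-106008197, plus strand: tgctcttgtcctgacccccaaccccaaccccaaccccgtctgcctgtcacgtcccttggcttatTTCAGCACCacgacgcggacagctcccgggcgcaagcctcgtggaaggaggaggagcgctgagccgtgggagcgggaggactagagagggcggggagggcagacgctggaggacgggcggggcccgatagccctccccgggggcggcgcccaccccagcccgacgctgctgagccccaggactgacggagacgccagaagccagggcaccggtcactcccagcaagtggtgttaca
Kcnmb4, chr10:116473474-116473773, minus strand: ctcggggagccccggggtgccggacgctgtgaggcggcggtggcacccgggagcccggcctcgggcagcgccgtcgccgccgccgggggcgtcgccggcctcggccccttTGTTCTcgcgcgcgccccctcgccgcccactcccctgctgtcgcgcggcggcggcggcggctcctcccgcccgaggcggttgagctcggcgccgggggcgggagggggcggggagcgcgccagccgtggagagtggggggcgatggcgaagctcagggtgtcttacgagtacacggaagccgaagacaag
The hexamer of the glucocorticoid response element, TGTTCT, was searched on both strands; it was found in 19% of all 32851 windows and in 2 of the 21 windows of tested genes. Kcnk10 holds it as AGAACA beginning 216 bases before the start, at one of its 2 annotated starts, and Kcnmb4 as TGTTCT beginning 140 bases before the start. The spaced palindrome of that element (G, any base, ACA, any 3 bases, TGT, any base, C), which can include the hexamer, was in 0.475% of all windows and in 0 of the 21. The left arm of the element bound by the repressor REST, TTCAGCACC, was in 0.371% of all windows and in 1 of the 21, that of Kcnh6, beginning 186 bases before the start. The cyclic AMP response element, TGACGTCA, was in 1.79% of all windows and in 0 of the 21. The windows of tested Kcn genes had a median GC content of 62.7%, against 58% for the windows of all Kcn genes found and 52.7% over all windows. All windows include those of genes with too few reads to test. Neither GC content nor motif shares were computed for the windows of all tested genes. A match is a description of the letters, and Kcnk10, which rose, and Kcnmb4, which was not called, both held the hexamer.

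Members of the Kv7 family carry the slow M-current that restrains repetitive firing. Kcnq3, an M-channel subunit (ENSMUSG00000056258, chromosome 15, 65986387 to 66286642 on GRCm38), had 18, 14.9 and 15.3 CPM in Dex-differentiated libraries, against 35.9, 39 and 37.8 CPM in undifferentiated libraries. Here every Dex-differentiated library was the lower one, and the fitted fall was 2.33-fold (-1.22 ± 0.098 SE on the log2 scale, edgeR adjusted p = 7.76e-12). Kcnq3 took 3.05% of all Kcn reads in Dex-differentiated and 12.0% in undifferentiated cells. Kcnq5, a further contributor to the M-current, had 7.2, 7.63 and 6.25 CPM in Dex-differentiated libraries, against 4.10, 4.72 and 4.55 CPM in undifferentiated libraries, and rose 1.59-fold (edgeR adjusted p = 0.0029); the pseudogene Gm7658 lies within it on the same strand, with 928 reads over the Dex-differentiated and 756 over the undifferentiated libraries, and how reads were shared between them was not tested. Kcnq1, the Kv7 gene of heart and epithelia, had 8 reads over the Dex-differentiated and 4 over the undifferentiated libraries and was not tested.

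Kcnc1 is a Kv3 gene, of channels that open and close fast and allow rapid firing. Kcnc1 (chromosome 7, 46396497 to 46438704) had 9.19, 11.1 and 9.83 CPM in Dex-differentiated libraries, against 2.12, 2.04 and 2.76 CPM in undifferentiated libraries, a 4.39-fold rise (log2 fold change 2.13 ± 0.212 SE, edgeR adjusted p = 5.71e-10). Kcnd1, a Kv4 gene of the fast-inactivating A-type current (ENSMUSG00000009731, chromosome X, 7822289 to 7838280), had 12.8, 15.5 and 14.6 CPM in Dex-differentiated libraries, against 2.97, 3.06 and 2.92 CPM in undifferentiated libraries. Its rise was 4.76-fold (log2 fold change 2.25 ± 0.182 SE, edgeR adjusted p = 8.1e-12), and it was the single Kv4 gene with any read. Kcnb2, a delayed rectifier gene of the Kv2 family, had 1 read in all.

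In the EAG, ERG and ELK family, Kcnh2, the ERG gene best known for repolarising the heart (ENSMUSG00000038319, chromosome 5, 24319589 to 24351604), was the highest tested member per exon length in both groups. It had 64, 79 and 74.5 CPM in Dex-differentiated libraries, against 77.7, 77.7 and 65.6 CPM in undifferentiated libraries. The groups overlapped, and the fit gave -0.03 ± 0.0774 SE on the log2 scale (edgeR adjusted p = 0.727; 0.252 to 0.938 over the alternatives). Of the ELK genes, Kcnh3 had 3.43, 2.51 and 2.83 CPM in Dex-differentiated libraries, against 0.565, 0.127 and 0.325 CPM in undifferentiated libraries, an 8.45-fold rise by the fit (edgeR adjusted p = 4.24e-07) and 12.8-fold without undifferentiated replicate 1. Kcnh3 reached the read minimum through the Dex-differentiated libraries alone, where 88.6% of all such genes rose. Its fold rests on 7 reads in the undifferentiated group. Kcnh4 had 5.43, 4.91 and 4.17 CPM in Dex-differentiated libraries, against 2.54, 2.42 and 2.44 CPM in undifferentiated libraries, and rose 1.97-fold (edgeR adjusted p = 0.000549).

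Kcnh6, a further ERG gene, had 12, 13 and 13 reads in Dex-differentiated libraries, against 6, 2 and 6 in undifferentiated libraries, and was called higher (log2 fold change 1.18 ± 0.443 SE, edgeR adjusted p = 0.0174). This call was lost without Dex-differentiated replicate 3 (adjusted p = 0.0641), without undifferentiated replicate 2 (0.146) and with DESeq2 (0.0757), and over all alternatives the adjusted p ran from 0.00942 to 0.146. Kcnh6 reached the read minimum through the Dex-differentiated libraries alone, where 88.6% of all such genes rose. Kcnh7, the third ERG gene, had 13, 13 and 8 reads in Dex-differentiated libraries, against 1, 4 and 0 in undifferentiated libraries, too few for the main test. Kcnh1, an EAG gene, had 4 reads over the Dex-differentiated libraries and 0 over the undifferentiated libraries.

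The tested genes of channels opened by sodium or calcium were Kcnt1, Kcnn3 and Kcnn1. Kcnt1, which encodes the sodium-activated channel known as Slack (ENSMUSG00000058740, chromosome 2, 25863734 to 25918273), had 33.3, 36.1 and 37.7 CPM in Dex-differentiated libraries, against 0.989, 1.66 and 1.3 CPM in undifferentiated libraries. No library of either group came near the other group, and the fitted rise was 26.5-fold (log2 fold change 4.73 ± 0.171 SE, edgeR adjusted p = 1.91e-19). In raw reads this was 301, 331 and 253 in Dex-differentiated against 7, 13 and 8 in undifferentiated libraries. Kcnt1 is among the 8 genes that reached the read minimum through the Dex-differentiated libraries alone, as are Kcnh3, Kcnh6, Kcnn1, Kcnj11, Kcnk1 and Kcnk12. Over the alternatives the log2 fold change of Kcnt1 ran from 4.56 to 4.95. Kcnt1 took 6.69% of all Kcn reads in Dex-differentiated and 0.424% in undifferentiated cells, and it ranked 8 of the 26 tested genes by level per exon length in Dex-differentiated cells and 23 in undifferentiated cells.

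Kcnn3, a small-conductance (SK) channel gene of the afterhyperpolarisation (ENSMUSG00000000794, chromosome 3, 89520164 to 89675132), had 20.9, 14.2 and 19.2 CPM in Dex-differentiated libraries, against 3.53, 3.57 and 2.44 CPM in undifferentiated libraries, a 5.57-fold rise (log2 fold change 2.48 ± 0.194 SE, edgeR adjusted p = 4.25e-12). Kcnn1, another SK gene, had 25, 32 and 21 reads in Dex-differentiated libraries, against 0, 4 and 2 reads in undifferentiated libraries. It was called higher, by 3.39 ± 0.468 SE on the log2 scale (edgeR adjusted p = 2.5e-07), which moved to 4.23 without undifferentiated replicate 2. Kcnn1 reached the read minimum through the Dex-differentiated libraries alone, where 88.6% of all such genes rose. Kcnn4, the intermediate-conductance (IK) channel gene, had 14, 8 and 16 reads in Dex-differentiated libraries, against 2, 4 and 0 in undifferentiated libraries; Kcnn2 had none.

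Kcnma1, the pore gene of the large-conductance BK channel, had 7, 4 and 10 reads in Dex-differentiated libraries, against 0, 1 and 0 in undifferentiated libraries, 17.8-fold higher by scaled reads with a wide 95% counting interval of 2.86 to 735. Its neuronal beta subunit gene Kcnmb4 had 5.54, 5.12 and 6.85 CPM in Dex-differentiated libraries, against 4.38, 4.72 and 4.55 CPM in undifferentiated libraries. Although these values do not overlap, the difference did not pass (0.34 ± 0.205 SE on the log2 scale, edgeR adjusted p = 0.13); scaling by library totals alone gave an adjusted p of 0.0409, and the alternatives ran from 0.0409 to 0.357. Kcnu1, known as the sperm channel Slo3, had 17, 8 and 12 reads in Dex-differentiated libraries, against 3, 3 and 2 in undifferentiated libraries.

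**Figure D2:**
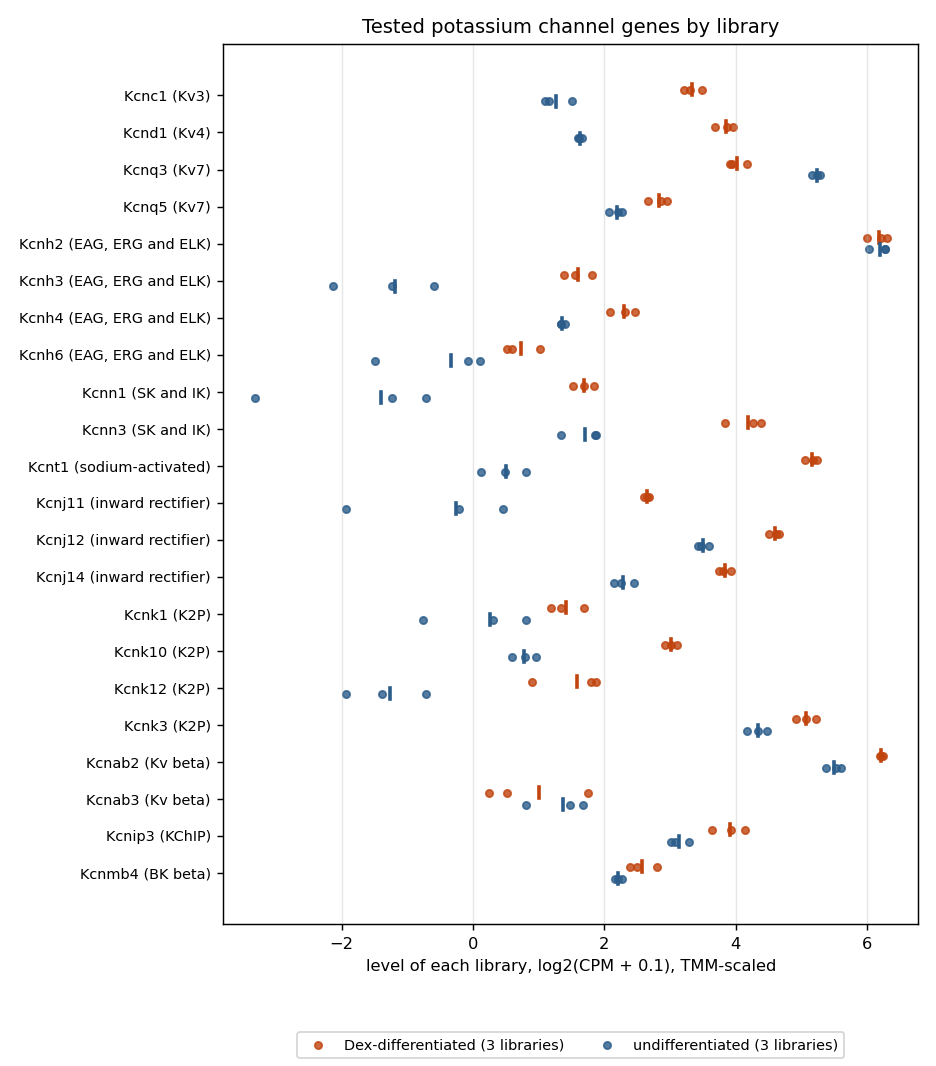
Level of 22 of the 26 tested genes in each library, as log2 of TMM-scaled CPM plus 0.1, with the family in brackets; points are libraries and short bars are the level at the group mean (n = 3). Kcnt1 lies between 33.3 and 37.7 CPM in Dex-differentiated and between 0.989 and 1.66 CPM in undifferentiated libraries, while the groups overlap for Kcnh2 and Kcnab3.

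Of the inward rectifier genes 3 were tested, and Kcnj12 and Kcnj14 reached the read minimum in both groups. Kcnj12, a strong rectifier of the classical type that holds the resting potential (ENSMUSG00000042529, chromosome 11, 61022564 to 61071131), had 22.7, 25.3 and 24.4 CPM in Dex-differentiated libraries, against 12, 10.7 and 11 CPM in undifferentiated libraries, a 2.14-fold rise (log2 fold change 1.10 ± 0.115 SE, edgeR adjusted p = 1.51e-09). Kcnj14, of the same subfamily, had 13.4, 14 and 15.2 CPM in Dex-differentiated libraries, against 4.66, 4.33 and 5.36 CPM in undifferentiated libraries, a 2.97-fold rise. Kcnj4, another of that subfamily, had 21 reads over the Dex-differentiated and 5 over the undifferentiated libraries and was not tested.

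Kcnj11 encodes the pore of the ATP-sensitive potassium channel, which needs a sulphonylurea receptor subunit. It reached the read minimum through the Dex-differentiated libraries alone, where 88.6% of all such genes rose. It had 57, 57 and 40 reads in Dex-differentiated libraries, against 9, 6 and 1 in undifferentiated libraries, an 8.00-fold rise by the fit (log2 fold change 3.00 ± 0.328 SE, edgeR adjusted p = 3.69e-09) and 12.0-fold without undifferentiated replicate 1. The receptor genes were looked at after these values were seen: Abcc8 had 1 read over the Dex-differentiated and 1 over the undifferentiated libraries, and Abcc9 had 0 in all 6, as had Kcnj8, the other pore gene of such channels.

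Of the K2P genes, which carry background current, 4 were tested. Kcnk3 and Kcnk10 reached the read minimum in both groups, while Kcnk1 and Kcnk12 reached it through the Dex-differentiated libraries alone, where 88.6% of all such genes rose. Kcnk3, the acid-sensitive TASK channel gene (ENSMUSG00000049265, chromosome 5, 30588170 to 30625271), had 30.3, 33.5 and 37.4 CPM in Dex-differentiated libraries, against 20.2, 18 and 22.2 CPM in undifferentiated libraries, and rose 1.67-fold (log2 fold change 0.74 ± 0.103 SE, edgeR adjusted p = 2.54e-07). Kcnk10, a TREK channel gene sensitive to stretch and lipids (ENSMUSG00000033854, chromosome 12, 98429437 to 98578310), had 7.53, 7.96 and 8.49 CPM in Dex-differentiated libraries, against 1.84, 1.40 and 1.62 CPM in undifferentiated libraries. The libraries did not overlap and the rise was 4.89-fold (log2 fold change 2.29 ± 0.236 SE, edgeR adjusted p = 1.23e-09); its promoter window is among those printed above. Kcnk12, a THIK channel gene, had 1.77, 3.38 and 3.57 CPM in Dex-differentiated libraries, against 0.283, 0.510 and 0.162 CPM in undifferentiated libraries, an 8.26-fold rise resting on 7 reads in the undifferentiated group. Kcnk1, the TWIK channel gene, had 2.44, 2.18 and 3.13 CPM in Dex-differentiated libraries, against 1.13, 1.66 and 0.487 CPM in undifferentiated libraries, and rose 2.22-fold (edgeR adjusted p = 0.00481). Kcnk2, the second TREK gene, had 18, 13 and 7 reads in Dex-differentiated libraries, against 4, 2 and 3 in undifferentiated libraries, below the read minimum; the pseudogene Pdcd5-ps within it, on the same strand, had 586 over the Dex-differentiated and 974 over the undifferentiated libraries.

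Among auxiliary genes, Kcnab2, a Kv beta subunit that binds Kv1 channels (ENSMUSG00000028931, chromosome 4, 152390742 to 152477871), was second only to Kcnh2 in mean level per exon length in both groups. It had 73.9, 75.5 and 74.3 CPM in Dex-differentiated libraries, against 48.8, 41.4 and 45.9 CPM in undifferentiated libraries, a 1.65-fold rise (log2 fold change 0.72 ± 0.0709 SE, edgeR adjusted p = 4.94e-10). Gm16334, a transcript that overlaps it on the same strand, had 91 reads over the Dex-differentiated and 41 over the undifferentiated libraries. The Kv1 pore genes themselves were nearly absent, Kcna4 with its 10 and 16 reads being the highest. Kcnab3 had 1.33, 1.09 and 3.28 CPM in Dex-differentiated libraries, against 2.69, 1.66 and 3.08 CPM in undifferentiated libraries, and did not pass (-0.44 ± 0.361 SE on the log2 scale, edgeR adjusted p = 0.262). Without Dex-differentiated replicate 3, its highest library, it was called lower (log2 fold change -0.99, adjusted p = 0.021), and the alternatives ran from 0.021 to 0.737. Of the 26 tested genes, Kcnab3 alone reached the read minimum only through the undifferentiated libraries. Of all 347 genes of that kind, 79.8% were called lower and 0% higher. Kcnab1 had 16 reads over the Dex-differentiated and 3 over the undifferentiated libraries, 4.51-fold more by scaled reads with a 95% counting interval of 1.29 to 24.2.

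Kcnip3, a calcium sensor that binds Kv4 channels and is also known as DREAM (chromosome 2, 127456498 to 127522094), had 15.2, 17.6 and 12.4 CPM in Dex-differentiated libraries, against 8.34, 8.03 and 9.74 CPM in undifferentiated libraries, and rose 1.76-fold (log2 fold change 0.81 ± 0.152 SE, edgeR adjusted p = 2.44e-05). Kcnip2, of the same family, had 6, 7 and 5 reads in Dex-differentiated libraries, against 2, 4 and 0 in undifferentiated libraries. The Kcne genes, single-span partners of Kv channels, had at most 5 reads in a group, Kcne3 with 1 over the Dex-differentiated and 5 over the undifferentiated libraries. Kcnrg, a regulator of Kv assembly, had 3 reads over the Dex-differentiated and 2 over the undifferentiated libraries.

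Ordered by mean level per kilobase of exon in Dex-differentiated cells, the tested genes began with Kcnh2 at 15 ± 1.59, Kcnab2 at 13.4 ± 0.157, Kcnj12 at 8.78 ± 0.480 and Kcnk3 at 8.48 ± 0.887 CPM per kilobase (SD, n = 3). Kcnh2 and Kcnab2 overlapped between libraries, as did Kcnj12 and Kcnk3, whereas Kcnab2 and Kcnj12 did not. In undifferentiated cells the order began with Kcnh2 at 15.2 ± 1.45, Kcnab2 at 8.13 ± 0.663, Kcnk3 at 5.07 ± 0.537 and Kcnj12 at 4.09 ± 0.247 CPM per kilobase (SD, n = 3), and none of these neighbours overlapped. Of the 25 neighbouring pairs among the 26 tested genes, 18 overlapped in Dex-differentiated and 16 in undifferentiated cells.

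**Figure D3:**
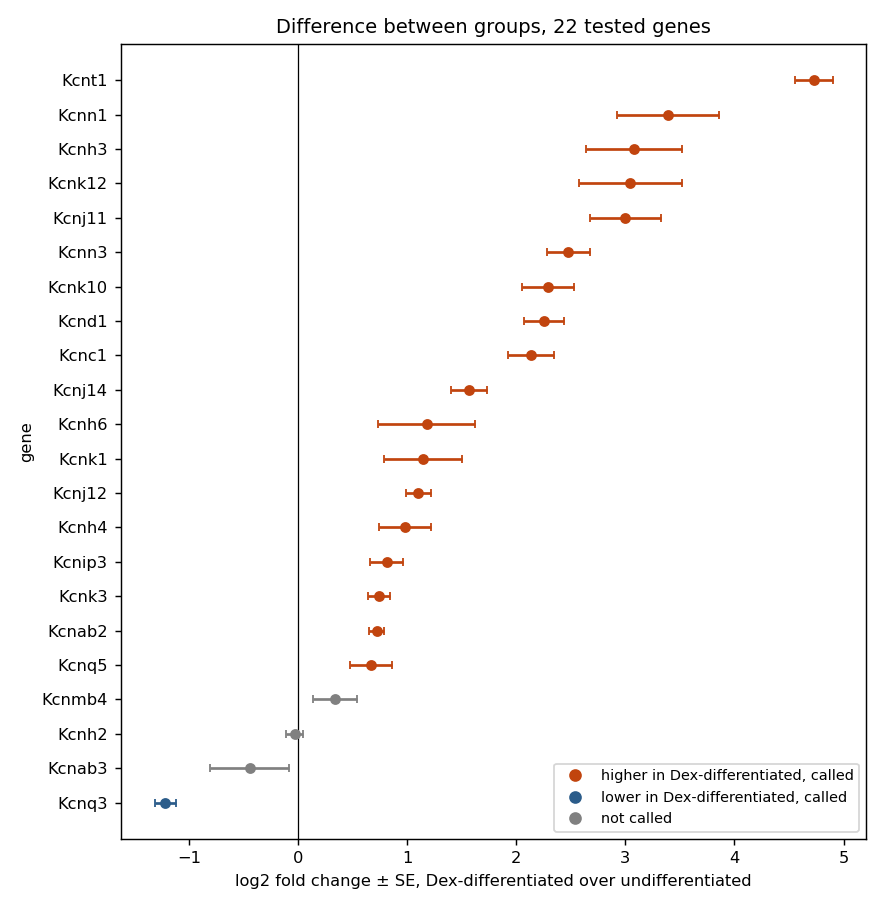
Log2 fold change of 22 of the 26 tested genes, Dex-differentiated over undifferentiated, with the standard error from edgeR's quasi-likelihood fit, coloured by whether the adjusted p was under 0.05. Kcnt1 at 4.73 lies at the top and Kcnq3 at -1.22 at the bottom.

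Genes that work with potassium channels under other names were read from the same fit, in which 40.3% of all genes rose and 38.6% fell. Of 10 auxiliary subunit genes 3 were tested, of which 2 rose and none fell: Amigo1, a partner of Kv2 channels, was 3.34-fold and Lgi1, a secreted modulator of Kv1 channels, 2.45-fold higher. The Kv4 partner genes Dpp6 and Dpp10, chosen after their values were seen, had 0 and 0 reads in Dex-differentiated and 4 and 0 reads in undifferentiated cells. Of 11 tested genes of anchoring and clustering 6 rose and none fell, with the ankyrin gene Ank2 2.73-fold and the scaffold gene Dlg2 1.91-fold higher. All 3 other potassium channel genes rose, Tmem38a of intracellular stores 2.57-fold and the lysosomal channel gene Tmem175 1.74-fold.

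Of 10 tested pump and cotransporter genes 5 rose and 2 fell, a share of rises near that over all genes (40.3%), with 38.6% of all genes falling. The potassium-chloride cotransporter gene Slc12a4 rose 2.06-fold. Slc12a2, the sodium-potassium-chloride cotransporter that brings chloride in, averaged 22.3 ± 0.114 CPM in Dex-differentiated and 62.0 ± 5.19 CPM in undifferentiated cells (SD, n = 3 each), and Atp1b3 fell by 0.17 on the log2 scale. Of 7 tested regulators 2 rose and 4 fell. Sgk1, a glucocorticoid-induced kinase known to raise the surface level of several channels, rose 3.63-fold and the kinase gene Wnk1 1.27-fold. The kinase gene Stk39 fell by 0.51 and Rest, a repressor of neuronal genes, fell by 0.46 on the log2 scale. The median log2 fold change was 1.29 for the auxiliary, 0.29 for the anchoring, 0.80 for the other channel, 0.56 for the pump and -0.11 for the regulator list, against 0.02 over all genes tested.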

How the data were processed

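mRNA of 3 Dex-differentiated and 3 undifferentiated CAD samples was sequenced with 75-base reads, per the labels' protocols. Values deposited by the authors are raw whole-number counts per gene, made with featureCounts 1.6.4 (strand setting 1, exons of Ensembl 96 on GRCm38, no multi-mapping or multi-overlap option), per the file headers; reads shared by near-identical genes are therefore uncertain. The submitters' processing notes also name FastQC 0.11.9, Trim Galore 0.6.4, HISAT2 2.2.0 and DESeq2. All 55536 identifiers matched GENCODE M21, of the same annotation release, start and end included. The members and gene lists were chosen with earlier results of these data known.

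Counts were filtered with filterByExpr (minimum count 10, total 15), scaled with TMM and tested with edgeR 4.0.16 (R 4.3.3), group as the only term, on all genes; CPM, means and SDs use TMM-scaled libraries. The standard error is the log2 fold change divided by the square root of F. With 1 to 3 reads in a group, the scaled ratio has an exact 95% binomial interval; intervals and floors cover counting error only. Members detected in a group are named, apart from a few genes whose results are not reported here; genes of the other lists are up to 2 called per direction with the smallest adjusted p and at least 1 CPM in a group. The fit was first tested on simulated counts. No 2 libraries of a group agreed within sampling noise (chi-square over its degrees of freedom, 1.65 to 3.19). Alternatives were other scalings, filters, DESeq2 1.42.0, protein-coding genes alone, each library left out, a replicate block and other detection rules. Motifs were searched in RefSeq promoter windows.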

Additional observations from a re-analysis of the deposited data

How the results depend on the processing

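The counts of Kcn genes called stayed within 1.5 times under every alternative. Between 20 (DESeq2, 26 Kcn genes tested) and 28 (no filter, 57 tested) were called higher and 2 or 3 lower. Leaving out each library gave 21 to 25 higher and 2 to 3 lower, of 26 to 30 Kcn genes tested. Of all 12664 genes tested with DESeq2, 4748 were higher and 4606 lower, against 5743 and 4982 of 23260 with no filter. Without each library, 5022 to 5103 of all genes were higher and 4674 to 4845 lower. The median log2 fold change of the tested Kcn genes was 1.25 with upper quartile factors and 1.28 with library totals, each over 26 genes, 1.44 with no filter, over 57 genes, and 1.13 to 1.56 without each library, when 26 to 30 Kcn genes passed the filter. Upper quartile factors and library totals moved the median of all genes by 0.102 and 0.125. Detection in undifferentiated cells was the most sensitive count: 31 genes with at least 1 read in every library, against 20 with 3 reads and 18 with 10 reads; in Dex-differentiated cells these were 39, 35 and 26. Without each library of the group, 35 to 37 genes were detected in Dex-differentiated and 21 to 23 in undifferentiated cells. Calls of single genes changed for Kcnh6, Kcnab3 and Kcnmb4 alone among the 26, as given with their values. Same-numbered samples did not deviate together across genes (r = -0.0947, 0.0357 and -0.0710), against -0.0406 to 0.105 for differently numbered ones. Such correlations cannot show whether same-numbered samples shared a day or culture. With the replicate number as a block, 21 Kcn genes were higher and 2 lower, and 5017 and 4803 of all genes. At these depths a gene needs about 10 reads per library to be tested, which left out 9 of the 35 genes detected in Dex-differentiated cells. With no filter, Kcnn4, Kcnh7, Kcnma1, Kcnu1, Kcnk2, Kcnj4 and Kcnab1 of these 9 were called higher (edgeR adjusted p from 9e-05 to 0.0382). All 9 had met the detection rule in Dex-differentiated cells alone, a choice that favours a higher call. No other Kcn gene left out of the main test was called. Over all 23260 genes tested with no filter, 5743 were called higher and 4982 lower.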

Other observations

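Besides the protein-coding genes, 5 antisense RNA genes carry a Kcn symbol and were left out by the rule. Kcnq1ot1, the imprinted antisense RNA of the Kcnq1 locus, had 40, 24 and 20 reads in Dex-differentiated libraries, against 59, 72 and 56 reads in undifferentiated libraries. Kcnmb4os2, antisense to Kcnmb4, had 6, 6 and 8 reads in Dex-differentiated libraries, against 3, 4 and 2 reads in undifferentiated libraries. The other 3, Kcnab3os, Kcnd3os and Kcnmb4os1, had at most 1 read in a library.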
